A study of Mus musculus with 12 samples.

Results

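The genes described here are the mouse MHC class II genes H2-Aa, H2-Ab1, H2-Eb1, H2-DMa, H2-DMb1, H2-DMb2, H2-Oa and H2-Ob, the invariant chain gene Cd74, and Ciita, the transactivator of the family. They were taken as every probe set whose platform annotation names 1 of these 10 genes, which gave 22 of the 45037 probe sets on the array. Of these, 19 carried 1 symbol and 3 carried 2 symbols and are given apart: 2 name H2-DMb2 with H2-DMb1, which has no probe set of its own, and 1 names H2-Ob with the long non-coding RNA gene Gm20506. The measurements come from 12 one-colour Affymetrix arrays of Ebf1-/- progenitors from C57BL/6 mice, labelled as pre-pro-B cells and grown with OP9, a stromal line from mouse bone marrow, plus SCF, Flt3L and IL-7. The cells carried a PAX5 and GFP retrovirus (Mig-PAX5), the GFP-only MigR1 retrovirus of the second set, an EBF1 and GFP retrovirus (Mig-EBF1), or the MigR1 retrovirus of the first set, with 3 arrays each. GFP-positive cells were sorted after 2 days, so all groups, controls included, lack the endogenous EBF1 gene function and have been through infection and sorting. The comparisons ask what PAX5, the factor of B cell commitment, and EBF1, the factor missing from these cells, each do to class II transcripts.

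Class II molecules are heterodimers of an alpha and a beta chain that show peptides from the endosome to CD4 T cells. They are assembled with the invariant chain, which blocks the groove until endosomal proteases and the DM heterodimer exchange its last fragment for antigen peptide, while the DO heterodimer restrains DM. The genes share a promoter module of an X element, bound by RFX and CREB family factors, and a Y element, bound by NF-Y, to which CIITA is recruited. CIITA binds no DNA of its own, and its level sets class II transcription in B cells, dendritic cells and macrophages.

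The X and Y elements are shown first, since they are what these promoters have in common apart from the measurements. RefSeq start-site windows of GRCm38.p6 were found for 7 of the 10 genes, and the 140 bases before the start are printed here for 6 of them and for H2-Eb2, a class II gene that is no member and did not pass the test with PAX5. A set of 3 motifs was searched on both strands over the 250 bases before each start: ATTGG (the Y element), ATGATG (part of many X elements) and TGACGTCA (a CREB site). Capitals mark each match, and the letters AAC where ATTGG follows at the spacing given next.
H2-Aa (chr17:34287824-34287963, minus strand): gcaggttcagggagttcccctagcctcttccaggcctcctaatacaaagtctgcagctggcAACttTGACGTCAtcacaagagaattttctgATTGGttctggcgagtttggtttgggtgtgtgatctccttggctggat
H2-Eb1 (chr17:34305727-34305866, plus strand): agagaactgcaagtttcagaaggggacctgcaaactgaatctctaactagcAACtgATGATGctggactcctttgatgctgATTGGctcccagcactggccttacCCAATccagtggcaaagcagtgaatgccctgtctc
H2-DMb2 (chr17:34145109-34145248, plus strand): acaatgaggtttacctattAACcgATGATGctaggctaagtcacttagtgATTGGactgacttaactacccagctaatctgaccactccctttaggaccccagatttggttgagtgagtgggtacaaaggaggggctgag
H2-DMb1 (chr17:34153051-34153190, plus strand): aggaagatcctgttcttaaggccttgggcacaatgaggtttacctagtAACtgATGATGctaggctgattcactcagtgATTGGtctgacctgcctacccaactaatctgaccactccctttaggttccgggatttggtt
H2-Oa (chr17:34092239-34092378, plus strand): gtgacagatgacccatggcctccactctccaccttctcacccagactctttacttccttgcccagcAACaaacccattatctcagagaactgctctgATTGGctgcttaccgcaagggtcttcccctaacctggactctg
H2-Ob (chr17:34238765-34238904, plus strand): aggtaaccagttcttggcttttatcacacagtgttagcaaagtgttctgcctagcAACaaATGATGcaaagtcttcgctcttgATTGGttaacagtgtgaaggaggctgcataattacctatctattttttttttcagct
H2-Eb2 (chr17:34325535-34325674, plus strand): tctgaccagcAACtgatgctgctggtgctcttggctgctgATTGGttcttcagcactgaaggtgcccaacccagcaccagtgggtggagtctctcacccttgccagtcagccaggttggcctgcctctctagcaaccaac

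In each of these 7 windows the letters AAC were followed by ATTGG after 25 to 28 bases. That arrangement, on either strand, was found in 2.09% of 32851 start-site windows of the same length. Between these letters H2-Eb1, H2-DMb2, H2-DMb1 and H2-Ob held ATGATG, as did 8 of the 32851 windows, and H2-Aa held TGACGTCA, the 1 window that did. Anywhere in the window, ATGATG was found in 9.39%, TGACGTCA in 1.55% and ATTGG in 33.8%. The motifs and the spacing were set with the sequences in view, and a match is a description of letters, not a shown binding site. Neither of 2 start-site windows listed for H2-DMa held the spaced pair. H2-Ab1, Cd74 and Ciita are named without sequence.

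Median intensities were 65.3 to 68.9 on set 2 arrays and 55.1 to 60.6 on set 1 arrays. Over 12889 bright probe sets, equal-numbered controls of both sets had a robust SD of their log2 difference of 0.039 to 0.094, while unequal numbers gave 0.287 to 0.374. For PAX5 arrays 2 and 3 it was 0.077, and for the remaining within-group pairs 0.211 to 0.359. Each such pair differs by less than replicates do and was counted as 1 sample, which leaves 2 PAX5, 3 EBF1 and 3 control samples. Separate cultures are not stated for the replicates, so a p-value covers only the spread among these samples, which may be technical. Both comparisons therefore share their control samples. The pan-leukocyte gene Ptprc read 4781 to 6571 on the PAX5 and EBF1 arrays. Progenitor markers were uneven with EBF1. Cd34 read 725, 522 and 2300 on EBF1 arrays 1, 2 and 3, against 2146 to 3103 in the controls of set 1 (limma adjusted p = 0.33). Kit read 43.5, 37.9 and 190, against 99.4 to 253 (0.57). The Pax5 transcript read 1849, 891 and 932 on PAX5 arrays 1, 2 and 3 at 1421765_at, against a mean of 9.93 ± 2.56 in its controls (SD, n = 3). The other Pax5 probe set, 1454401_at, read 54.1, 56.1 and 60.2 with PAX5, against a mean of 63.99 in the controls (log2 change -0.14, limma adjusted p = 0.91). Ebf1 transcript was bright in every group, and the position of its probes against the mutation is not given, so it checks no label.

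PAX5 raised most of the family. Of the 22 probe sets 17 rose and 0 fell with PAX5 at an adjusted p under 0.05 (limma, Benjamini-Hochberg over all 45037 probe sets). Over all probe sets 0.464% rose and 0.0511% fell. At an unadjusted p under 0.05 all 22 were higher (limma), beside 3832 of the 45037 probe sets in either direction. The median log2 change of the 22 was 2.47, with a range of 0.78 to 6.23, beside a median of -0.01 over all probe sets. Each PAX5 array stood above every control array of set 2 in 20 of the 22, where 8.14% of all probe sets did so, and the other 2 were the H2-Ob probe sets. Changes are of log2(intensity + 16), which understates the change of dim probe sets. Without PAX5 array 1, with the lone PAX5 sample taken to vary as other groups do, 12 of the 22 still rose, and over all probe sets the calls dropped to 50, against 232 with it.

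**Figure D1:**
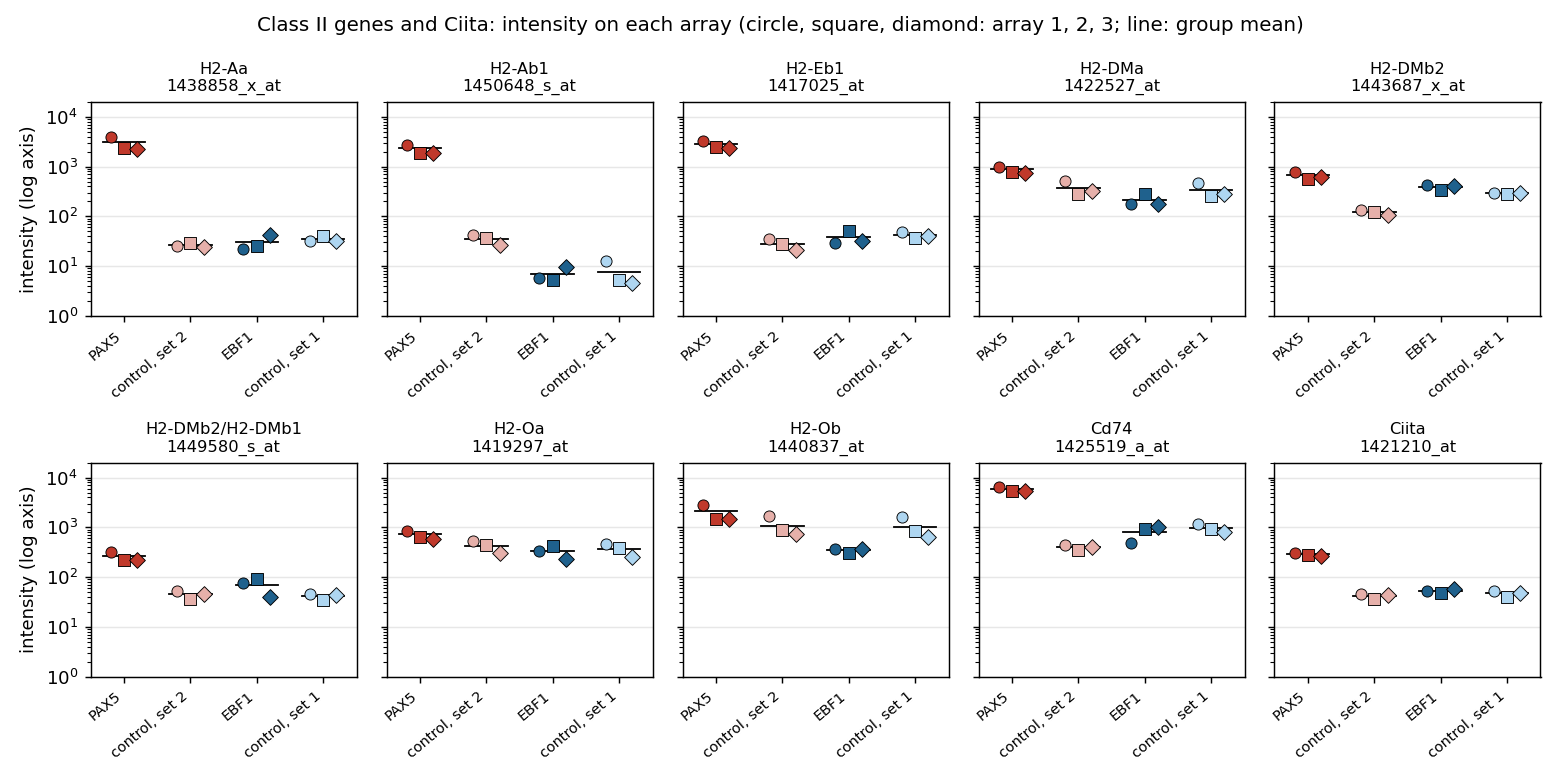
Intensity on a log axis on each of 12 arrays for 10 probe sets, the brightest of each gene and the brighter probe set shared by H2-DMb2 and H2-DMb1, with the mean of each group's counted samples as a line. H2-Aa, H2-Ab1 and H2-Eb1 lie between 1904 and 3846 on the PAX5 arrays and below 52 on every other array, whereas H2-Oa, H2-DMa and H2-Ob are bright in all 4 groups.

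The 3 genes of the peptide-presenting chains changed most. H2-Aa, the alpha chain of I-A, read 3846, 2366 and 2244 on PAX5 arrays 1, 2 and 3, against 25.4, 28.7 and 24.4 on their controls, at its brightest probe set (1438858_x_at). The groups were far apart, and the control values lay below the array medians. The log2 change was 6.15 (SE 0.25, limma adjusted p = 2.7e-05). The other 3 H2-Aa probe sets also rose, 1435290_x_at by 6.23, 1452431_s_at by 4.16 and 1443783_x_at by 2.53. The last of these lost its call with a constant of 1 in place of 16 (adjusted p = 0.0954) and with only PAX5 and control samples in the fit (0.0728).

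H2-Ab1, the beta chain that pairs with H2-Aa, read 2753, 1914 and 1904 with PAX5, against 43.2, 36.4 and 26.7 in the controls (1450648_s_at). It rose by 5.50 in log2 (SE 0.20, limma adjusted p = 1.6e-05), and its other probe sets rose by 4.85 (1451721_a_at) and 4.30 (1425477_x_at). H2-Eb1, the beta chain of I-E, read 3292, 2501 and 2405, against 35.8, 27.9 and 20.7 in the controls (1417025_at). It rose by 6.03 (SE 0.21, adjusted p = 1.6e-05). C57BL/6 mice make no I-E molecule, because their alpha chain gene H2-Ea is inactive, and RefSeq lists it as a transcribed pseudogene. H2-Ea read 50.4, 54.3 and 51.8 with PAX5, against a mean of 46.2 in the controls (log2 change 0.13, adjusted p = 0.91).

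Cd74 and Ciita rose as well. Cd74, the invariant chain, read 6527, 5328 and 5268 with PAX5, against 433, 350 and 412 in the controls (1425519_a_at). Its controls were well above the array medians, unlike those of the alpha and beta chains. The log2 change was 3.84 (SE 0.30, limma adjusted p = 0.001). Ciita read 309, 272 and 271 with PAX5, against 46.2, 35.8 and 44.2 in the controls (1421210_at), a log2 change of 2.40 (SE 0.14, adjusted p = 0.00021).

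Both dimmer Ciita probe sets passed narrowly. On PAX5 arrays 1421211_a_at read 159, 120 and 131, against 26.5, 38.1 and 35.9 in the controls (log2 change 1.68, limma adjusted p = 0.037). Probe set 1447075_at read 56.1, 28.8 and 27.1, against 12.7, 4.18 and 7.83, which is close to the floor (1.23, adjusted p = 0.042). Leaving out control array 1, 2 or 3 gave adjusted p = 0.131, 0.121 and 0.128 for the first and 0.0916, 0.193 and 0.16 for the second. Leaving out PAX5 array 1 gave 0.461 and 0.261, and EBF1 array 2, through the shared variance, 0.0731 and 0.0812. The second was also lost without EBF1 array 1 (0.0748), EBF1 array 3 (0.0592) or PAX5 array 2 (0.0508). A constant of 1 gave 0.126 and 0.0999, and only PAX5 and control samples gave 0.249 for the second. The call of 1421210_at held under each of its 19 alternatives, with adjusted p of up to 0.0098.

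The DM chains were all higher with PAX5 but differed in their calls, and their changes were not tested against each other. H2-DMb2, a beta chain of the peptide exchange factor, read 788, 563 and 604 with PAX5, against 134, 124 and 105 in the controls (1443687_x_at). It rose by 2.35 in log2 (SE 0.17, limma adjusted p = 0.00074), and 1443686_at and 1419744_at rose by 3.06 and 2.57. Leaving out control arrays 1, 2 or 3 or PAX5 array 1 moved the adjusted p of 1419744_at above 0.05, to 0.0792, 0.0977, 0.122 and 0.379. The 2 probe sets shared with H2-DMb1 rose by 2.22 (1449580_s_at, adjusted p = 0.012) and 1.79 (1418638_at, 0.0044). Their signal cannot be divided between the neighbouring beta chain genes. Without PAX5 array 1 these gave adjusted p = 0.197 and 0.091, and 1449580_s_at also missed the threshold without control array 2 (0.0586) or 3 (0.0671). A constant of 1 gave 0.105 for 1419744_at and 0.0602 for 1449580_s_at.

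H2-DMa, the alpha chain that pairs with them, was higher with PAX5 but did not pass (limma, unadjusted p = 0.0021 at 1422527_at). It read 986, 786 and 758 with PAX5, against 515, 280 and 320 in the controls (1422527_at), a change of 1.24 in log2 (SE 0.29, limma adjusted p = 0.17). The groups did not overlap, with control array 1 the highest of the controls. The dimmer probe set 1459872_x_at stood at 0.86 (adjusted p = 0.24).

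The DO chains were bright in the controls and did not pass either. Both were higher with PAX5 (limma, unadjusted p = 0.031 for H2-Oa and 0.028 for H2-Ob at 1440837_at). H2-Oa, the alpha chain, read 858, 644 and 597 with PAX5, against 532, 444 and 307 in the controls (1419297_at), a change of 0.78 in log2 (SE 0.30, limma adjusted p = 0.51). H2-Ob, the beta chain, read 2765, 1474 and 1488, against 1667, 874 and 719 (1440837_at), a change of 0.98 (SE 0.37, adjusted p = 0.50). Here the groups overlapped, since control array 1 read above PAX5 arrays 2 and 3. The probe set shared by H2-Ob and Gm20506 read 985, 488 and 471 with PAX5, against 528, 239 and 239 in the controls (1422201_at, 1.10, adjusted p = 0.36).

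PAX5 array 1 read above arrays 2 and 3 in 22 of the 22 probe sets, where 40.4% of all probe sets did so. The same array held the most Pax5 transcript. Control array 1 of set 2 was the highest control in 17 of the 22, where 34.9% of all probe sets were. The part of array-wide differences in these values was not tested.

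**Figure D2:**
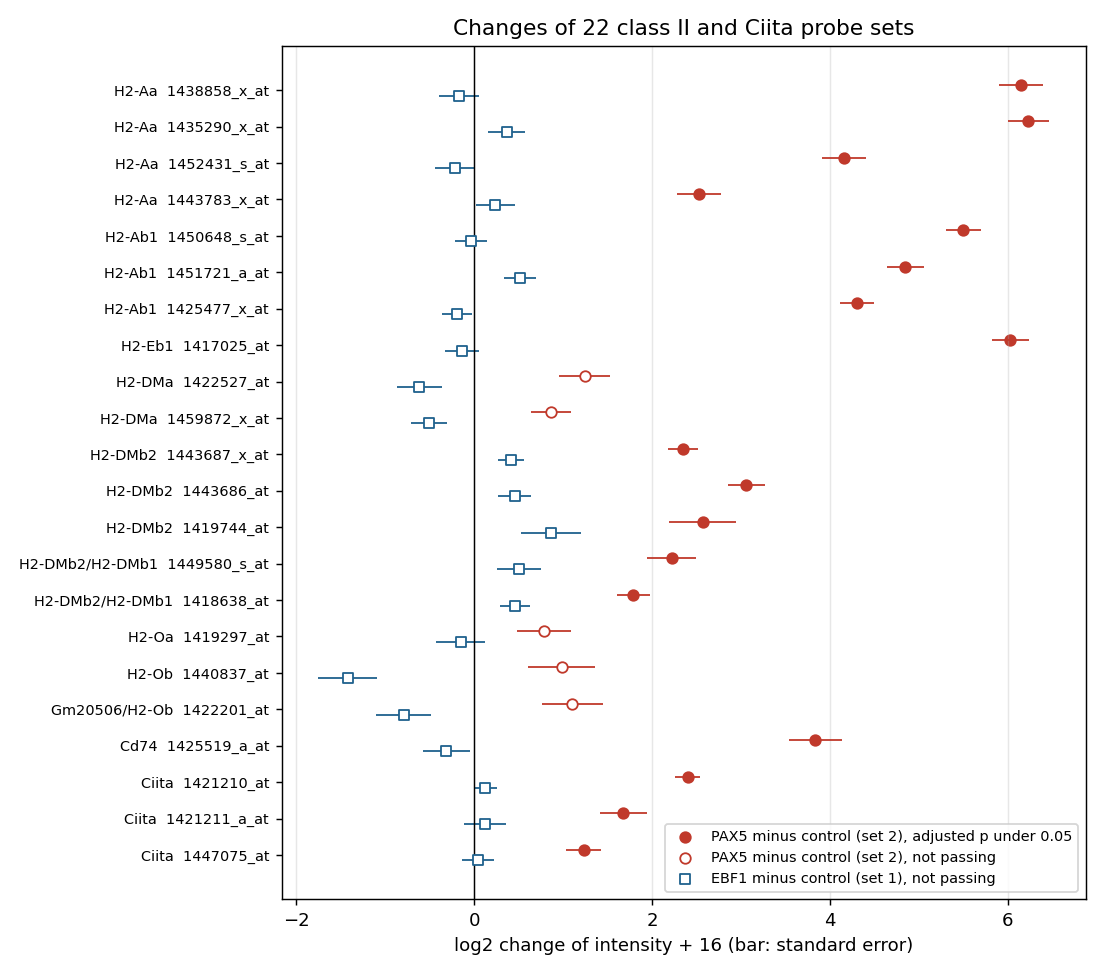
Log2 changes of intensity plus 16 with their standard errors for the 22 probe sets, PAX5 minus control of set 2 as circles and EBF1 minus control of set 1 as squares, filled where the adjusted p is under 0.05. The PAX5 changes run from 0.78 to 6.23, 17 of them filled, and the EBF1 changes from -1.42 to 0.86, none filled.

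No member passed the test with EBF1. With EBF1, 0 of the 22 probe sets rose and 0 fell (limma, adjusted over all probe sets), where 0.0933% of all probe sets rose and 0.00444% fell. At an unadjusted p under 0.05 there were 9, of which 5 were higher and 4 lower, beside 9.97% of all probe sets. The median log2 change of the 22 was 0.01, and that of all probe sets 0.02. Pairing EBF1 and control arrays by number left the member count at 0 and moved the count over all probe sets to 67, against 44 unpaired. Leaving out EBF1 array 3 gave 597 calls over all probe sets, and 0 of the members. The count of members was 0 under each of 17 alternatives.

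The presenting chains stayed dim with EBF1. H2-Aa read 22.1, 24.9 and 42.7 with EBF1, against 31.97, 40.2 and 31.96 in the controls of set 1 (1438858_x_at, log2 change -0.17, limma adjusted p = 0.88). H2-Eb1 read 29.4, 51.2 and 32.6, against 49.7, 36.7 and 41.2 (-0.14, adjusted p = 0.88). H2-Ab1 read 5.81, 5.24 and 9.44, against 12.6, 5.25 and 4.69 (1450648_s_at, -0.03, adjusted p = 0.98). At 1451721_a_at, however, each EBF1 array read above every control, at 28.6, 18.9 and 21.95 against 16.5, 9.55 and 8.22 (0.52, adjusted p = 0.39). Ciita read 53.5, 48.4 and 57.7 with EBF1, against 53.0, 40.6 and 48.9 (1421210_at, 0.13, adjusted p = 0.81). Cd74 read 474, 914 and 1027, against 1177, 909 and 807, with EBF1 array 1 the low one (-0.31, adjusted p = 0.77).

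H2-DMb2 and H2-Ob had changes of opposite sign with EBF1, and neither passed. H2-DMb2 read 434, 339 and 406 with EBF1, against 288, 287 and 293 in the controls (1443687_x_at), so the groups did not overlap. The log2 change was 0.42 (SE 0.15, limma adjusted p = 0.40). H2-Ob read 371, 300 and 372 with EBF1, against 1614, 847 and 631 in the controls (1440837_at), again without overlap. Its log2 change of -1.42 (SE 0.33) had an adjusted p of 0.20. H2-DMb2 was also higher at 1443686_at (0.46) and 1419744_at (0.86), as were both probe sets shared with H2-DMb1 (0.51 and 0.46). The probe set shared by H2-Ob and Gm20506 was lower (-0.79). None of these passed (limma adjusted p = 0.40 to 0.55). In all, 4 of the 22 probe sets had each EBF1 array above every control array and 3 had each below, where 7.06% and 6.14% of all probe sets did.

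The change with PAX5 minus the change with EBF1 was tested in the same fit. It was higher in 20 of the 22 probe sets and lower in 0 (limma, adjusted over all probe sets), where 0.770% of all probe sets were higher and 0.280% lower. The difference was 6.32 in log2 for H2-Aa (1438858_x_at, SE 0.25, adjusted p = 2.1e-05), 6.17 for H2-Eb1 (SE 0.21, 2.1e-05), 4.15 for Cd74 (SE 0.30, 0.00056) and 2.27 for Ciita (1421210_at, SE 0.14, 0.00019). H2-Oa, at 0.94 (adjusted p = 0.21), and 1419744_at of H2-DMb2, at 1.71 (0.082), did not pass. Without PAX5 array 1 the count was 12 of 22. It was 14 without EBF1 array 1 and 15 without EBF1 array 2. Once the offset between the control sets was subtracted, the control mean cancelled in this difference. The controls then entered it only through the offset and the shared variance. The cancelling holds only if both sets hold the same hybridisations, which the labels do not state. Counting all 12 arrays separately, where the error of the control means enters as well, gave 13 of 22.

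H2-DMa and H2-Ob passed only in this difference, not against the controls. H2-Ob differed by 2.40 (1440837_at, SE 0.37, limma adjusted p = 0.026) and H2-DMa by 1.86 (1422527_at, SE 0.29, 0.026). The H2-Ob difference missed the threshold without EBF1 array 1 (0.0762), EBF1 array 2 (0.0853) or PAX5 array 1 (0.316). That of H2-DMa missed it without EBF1 array 1 (0.0851) or PAX5 array 1 (0.321). A constant of 1 gave 0.0674 for H2-Ob and 0.0685 for H2-DMa, and counting all 12 arrays separately gave 0.132 and 0.0878.

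Within their own stretch of chromosome 17, 4 of the measured genes were called with PAX5, each of them a class II member. In the order of RefSeq's GRCm38.p6 annotation, H2-Oa, H2-DMa and both DM beta chain genes are followed by Psmb9, Tap1, Psmb8 and Tap2, the class I peptide supply genes, and then by H2-Ob, H2-Ab1, H2-Aa, H2-Eb1, H2-Eb2 and H2-Ea. Of 7 measured members between H2-Oa and H2-Ea, 4 rose at their brightest probe set, with log2 changes of 0.78 to 6.15. Of the 7 other measured genes in between, 0 rose and 0 fell, with log2 changes of -0.78 to 0.13. Over all probe sets 0.464% rose and 0.0511% fell, so 0 calls among so few genes do not set them apart from other genes. Tap2, a subunit of the peptide transporter, read 1022, 858 and 863 with PAX5, against a mean of 1688 in the controls (-0.78, limma adjusted p = 0.50). Psmb9, an immunoproteasome subunit, read 1146, 1111 and 1075, below each control array, with a mean of 1515 there (-0.43, adjusted p = 0.52). H2-Eb2, whose window above holds the spaced AAC and ATTGG letters, read 55.8, 40.1 and 50.6, against a mean of 46.7 (0.09, adjusted p = 0.95). The 6 measured genes among 8 annotated on either side of the stretch also had 0 calls, at -0.36 to 0.14.

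**Figure D3:**
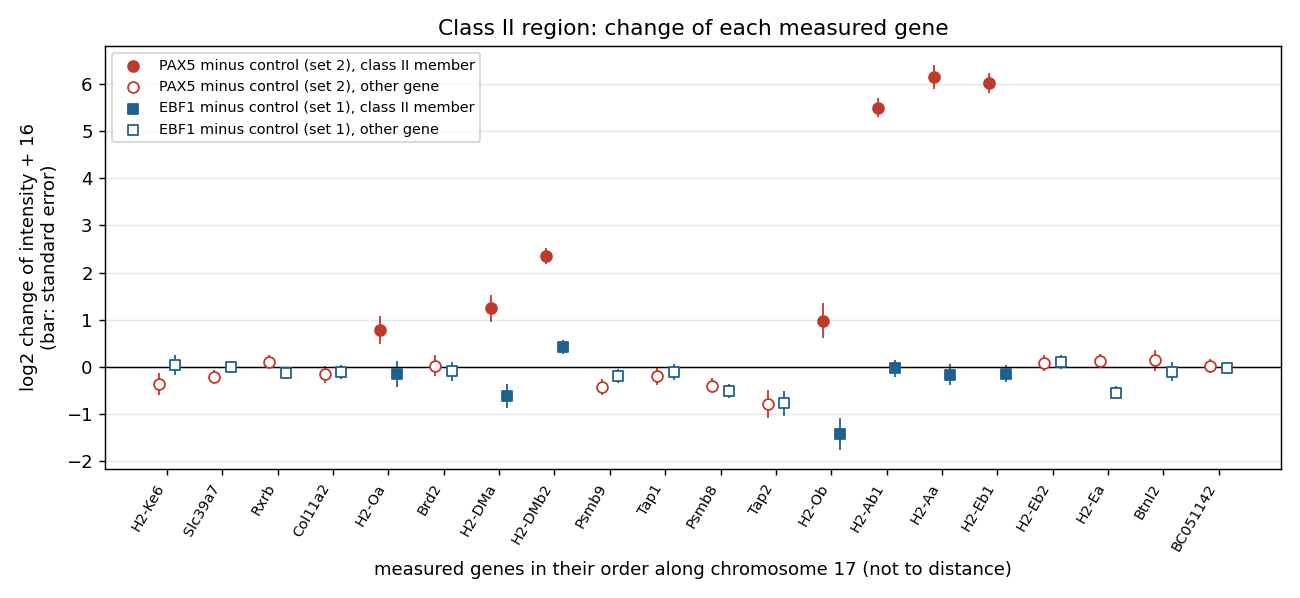
Log2 change of intensity plus 16 with its standard error for each measured gene in its order along chromosome 17, at its brightest probe set, PAX5 minus control of set 2 as circles and EBF1 minus control of set 1 as squares, filled for class II members. H2-Ab1, H2-Aa and H2-Eb1 stand at 5.50 to 6.15 with PAX5, while Psmb9, Tap1, Psmb8 and Tap2 lie between -0.78 and -0.19.

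Transcripts of the factors that bind the X and Y elements did not pass the test. Of 7 promoter factors, the RFX subunits Rfx5, Rfxank and Rfxap, the NF-Y subunits Nfya, Nfyb and Nfyc, and Creb1, 0 passed with PAX5 and 0 with EBF1 (limma, at unadjusted p under 0.05 0 and 1). Their PAX5 changes ran from -0.15 to 0.24. Of 15 measured genes known to act on Ciita, 3 rose with PAX5: the transduced Pax5, and Spib and Irf4, an Ets and an interferon regulatory factor of B cells. Over all probe sets 0.464% rose with PAX5 and 0.0933% with EBF1. At an unadjusted p under 0.05 there were 8 with PAX5 and 6 with EBF1 (limma), beside 3832 and 4488 of all 45037 probe sets. Spib read 1681, 1130 and 1268 with PAX5, against 103, 76.1 and 60.4 in the controls (log2 change 3.93, SE 0.46, adjusted p = 0.0082). It was the only one of the 15 to rise with EBF1, at 726, 898 and 259 against 61.9, 33.9 and 37.2 (3.27, SE 0.41, adjusted p = 0.033). Irf4 read 776, 511 and 557 with PAX5, against 90.1, 52.9 and 120 (2.72, SE 0.34, adjusted p = 0.012). Leaving out PAX5 array 1 gave adjusted p = 0.157 for Spib and 0.209 for Irf4, leaving out control array 3 gave 0.0641 for Spib, and leaving out control array 1 gave 0.0514 for Irf4. A constant of 1 gave 0.0602 for Irf4, and only PAX5 and control samples in the fit 0.0508. Irf8, at 1.89 (limma adjusted p = 0.082), Bach2, at 1.51 (0.19), and Bcl6, at 1.31 (0.093), did not pass. Each PAX5 array read above every control array in these genes, where 8.14% of all probe sets did so. Irf1, at -0.09 (0.97), and the interferon-gamma signalling genes Jak1, at 0.21 (0.80), Jak2, at 0.07 (0.97), and Ifngr1, at -0.16 (0.86), did not pass. Ifngr2, the second receptor chain, at 0.78 (0.12), and Ifng, at 0.78 (0.17), did not pass either, though each PAX5 array read above every control array in both. With EBF1, Ifngr2 stood at 0.76 (0.14) and Irf4 at 0.88 (0.38). Neither passed, though each EBF1 array read above every control array of set 1 in both.

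Of 13 genes of class II peptide processing and turnover, 2 rose with PAX5 and 0 with EBF1, where 0.464% and 0.0933% of all probe sets did. At an unadjusted p under 0.05 (limma) there were 5 and 4, beside 3832 and 4488 of all 45037 probe sets. Marchf1, a ubiquitin ligase that removes class II from the surface, read 316, 167 and 167 with PAX5, against 15.6, 16.1 and 17.1 in the controls (log2 change 2.93, SE 0.28, adjusted p = 0.0028). Its controls lay near the floor, and a constant of 1 gave an adjusted p of 0.115. Ctsz, a lysosomal protease, read 2450, 2113 and 1991, against 1274, 1325 and 1224 (0.81, SE 0.14, adjusted p = 0.048). The Ctsz call did not hold in 12 of 19 alternatives, which included leaving out control array 1, 2 or 3 (0.142, 0.131 and 0.166), EBF1 array 1, 2 or 3 (0.0901, 0.087 and 0.0574) and PAX5 array 1 or 2 (0.511 and 0.0619). Ctss, the protease that trims the invariant chain in B cells, read 3158, 2209 and 2043 with PAX5, against a mean of 676, but did not pass (2.11, adjusted p = 0.36). Lgmn, of the same list, stood at 1.54 with PAX5 (0.42) and 2.57 with EBF1 (0.13). It did not pass, though each PAX5 and each EBF1 array read above every control array of its set. Of 14 class I presentation genes 0 passed with either factor, with 3 at unadjusted p under 0.05 in each comparison, and their median change was -0.02 with PAX5. Among them Nlrc5 stood at 1.35 with EBF1 (limma adjusted p = 0.15), each EBF1 array above every control array, and at 0.05 with PAX5. Beside Cd74, the 6 genes of co-stimulation and antigen presentation, Cd40, Cd80, Cd86, Icosl, Cd83 and Cd1d1, had 0 calls with PAX5 and 1 at unadjusted p under 0.05, at -0.25 to 0.95.

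**Figure D4:**
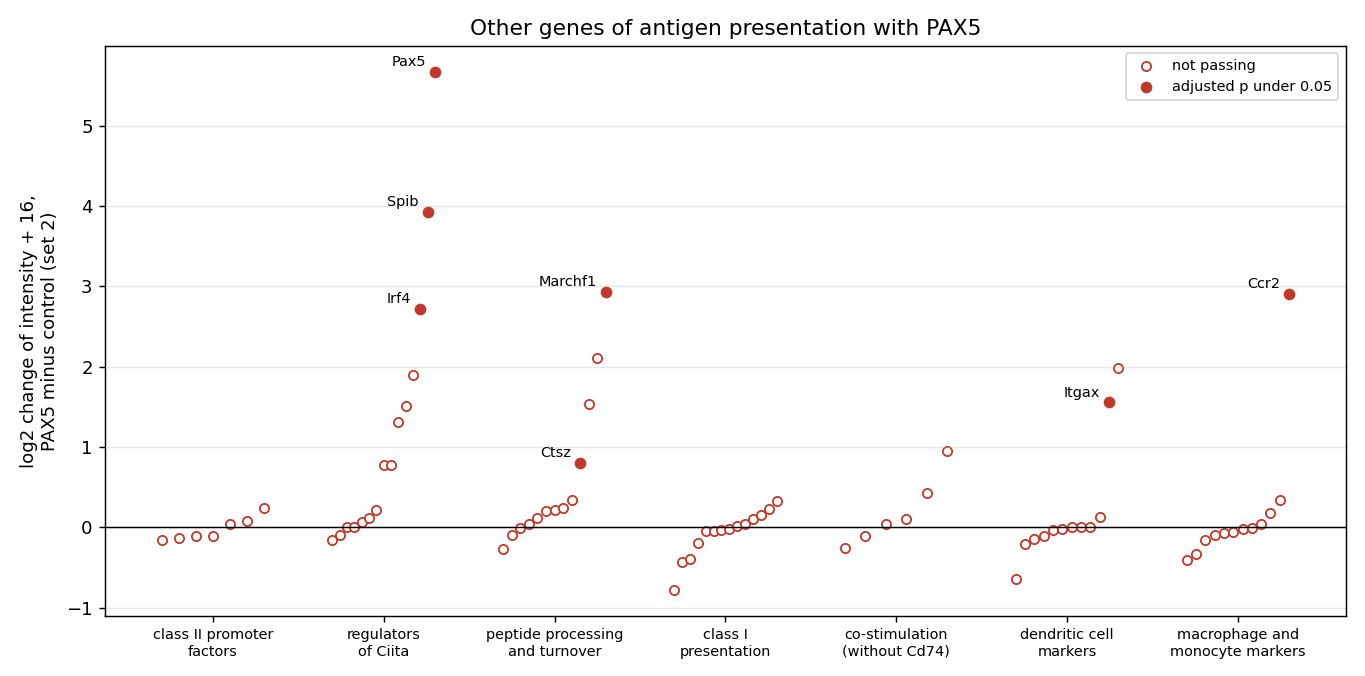
Log2 change of intensity plus 16 with PAX5 against control of set 2 for the measured genes of 7 lists, 1 point a gene at its brightest probe set, filled and named where the adjusted p is under 0.05. Promoter factors lie within -0.15 to 0.24 and class I genes within -0.78 to 0.33, while Marchf1 stands at 2.93 and Spib at 3.93.

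Dendritic cells and macrophages also carry class II, and fewer cells of a type cannot be told apart from less RNA per cell in sorted bulk samples. The summed intensity of 12 dendritic markers was 8454, 9071 and 8754 on PAX5 arrays 1, 2 and 3, against 8549 to 10209 in the controls. Among all probe sets 0.464% rose with PAX5. Itgax, an integrin of dendritic cells, was the 1 that rose, at 259, 211 and 202 against 88.9, 79.1 and 42.8 (1.56, limma adjusted p = 0.023). It missed the threshold without control array 2 (0.0647) or PAX5 array 1 (0.34), with a constant of 1 (0.0952) or with only PAX5 and control samples (0.168). Ccr7, a chemokine receptor of mature dendritic cells that lymphocytes also express, read 1109, 693 and 667, above each control array at 209, 311 and 136, but did not pass (1.99, adjusted p = 0.12). The other 10 markers had changes of -0.64 to 0.13, and Ccr9 made up 3949 to 5116 of the sum on the PAX5 arrays. Zbtb46, which defines conventional dendritic cells, read 63.1, 84.7 and 60.9 with PAX5, against 64.7, 84.4 and 59.2 in the controls. Of 12 macrophage and monocyte markers Ccr2 rose, at 4311, 3243 and 3198 against 577, 644 and 302 (2.91, adjusted p = 0.03). Its call was lost without control array 1, 2 or 3 (0.0903, 0.0755 and 0.109), EBF1 array 2 (0.0608) or PAX5 array 1 (0.407), with a constant of 1 (0.146) or with only PAX5 and control samples (0.0508). Without Ccr2 the other 11 summed to 1484, 1456 and 1413 with PAX5, against 1706, 1457 and 1463 in the controls. Adgre1, the F4/80 antigen, read 521, 481 and 465 with PAX5, against 605, 435 and 426 in the controls, and Csf1r, a growth factor receptor of macrophages, read 452, 516 and 506, against 466, 527 and 523. C1qb and C1qc read at most 2.99 on the PAX5 arrays and 3.89 in their controls. Levels of some markers depended on the set. In the controls of set 1 C1qb read 58.5 to 63.1, Csf1r 30.2 to 35.2 and Zbtb46 11.9 to 19.8. Adgre1, at 341 to 597 there, was closer to its level in set 2. With EBF1 the dendritic markers summed to 4085 to 8026, against 8226 to 10052 in the controls of set 1. The macrophage and monocyte markers, with Ccr2, summed to 470 to 1079, against 956 to 1427. At an unadjusted p under 0.05 in either direction there were 4 and 6 with EBF1 (limma), beside 9.97% of all probe sets, and 0 passed. The part of such cells in the EBF1 values of H2-Ob and H2-DMa was not tested. The 15 stromal markers summed to 14108 on EBF1 array 3 and to 2256 on the lowest EBF1 array, against 2061 to 3065 in the controls of set 1. EBF1 array 3 was also the lowest of its group at 1419744_at of H2-DMb2 (84.3 against 175 and 256 on arrays 1 and 2) and at both probe sets shared with H2-DMb1. It was not the lowest at 1443687_x_at (434, 339 and 406 on EBF1 arrays 1, 2 and 3) or 1443686_at (435, 327 and 360). It was the lowest as well at each listed gene called with EBF1, such as Spib (726, 898 and 259). The part of stromal RNA in these values was not tested.

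B-lineage markers were called with both factors. Of 10 measured, the transduced Pax5 and Blnk, an adaptor of B cell receptor signalling, rose with PAX5, where 0.464% of all probe sets did. With EBF1 5 rose (limma), where 0.0933% of all probe sets did. These 5 were Ms4a1, which encodes CD20, by 7.15 in log2, Vpreb1 and Igll1, the surrogate light chain genes, by 6.48 and 5.08, and Cd79b and Cd79a, the signalling chains of the B cell receptor, by 5.61 and 3.56. Of 8 lymphoid progenitor markers, Ly6d rose with EBF1 by 4.17 (adjusted p = 0.026) and 0 rose or fell with PAX5.

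Over the 8 counted samples, the non-member genes most like Ciita (1421210_at) were the transduced Pax5, Fam234b, Siglecg, Klhl14 and Esrp1, with Pearson r of 0.997 to 0.990. Those most like H2-Ab1 (1450648_s_at) were Pax5, Klhl14, Cartpt, Bcar3 and Traf5, with r of 0.996 to 0.992. Among the members, r with Ciita was 0.995 for H2-Ab1, 0.992 for H2-Aa, 0.990 for H2-Eb1, 0.984 for H2-DMb2 and 0.976 for Cd74, but 0.845 for H2-DMa, 0.728 for H2-Oa and 0.693 for H2-Ob. These values describe 8 points that fall into 3 groups and share their control samples. Pax5 was high only in the PAX5 samples, where it was transduced. Its likeness to a gene that rose there was set by the design and shows no link between their levels.

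Control levels of the members differed between the deposited sets. Equal-numbered controls differ by less than replicates, so both sets may hold the same hybridisations with separate processing, which the labels do not state. The gap is therefore not given as a difference between cells, and levels of dim probe sets depend on the set. The mean control of set 1 was between 0.0507 and 4.12 times that of set 2 over the 22 probe sets, and within 1.5 times in 14 of them. H2-DMb2 averaged 266 in set 1 and 64.7 in set 2 at 1443686_at, and Cd74 964 and 398. Changes against the controls of the same set are therefore the only ones given, and levels with PAX5 and with EBF1 were not set against each other.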

How the data were processed

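Per the labels' protocols, RNA was isolated with TRIzol followed by RNeasy cleanup, and cRNA carrying biotin was hybridised. The authors deposited linear intensities per probe set, 1 column an array, with 0 columns left out. Probe summary and array normalization are steps not given in the sources used here. Between 2.5% and 3.05% of values an array stand at exactly 1.

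Intensities were used as log2(intensity + 16). Arrays that differ less than replicates were averaged after each gene's offset between both control sets was subtracted. The resulting 8 samples were fitted with limma 3.58.1 in R 4.3.3 (with the data.table package, version 1.17.8), with 5 residual and 3.68 prior degrees of freedom. P-values were adjusted by Benjamini-Hochberg over 45037 probe sets, with a threshold of 0.05. The procedure was tested on simulated data. Platform annotation named 34945 probe sets with 1 symbol, 932 with several and 9160 with none, and 34741 matched GRCm38.p6 by Entrez ID. Listed genes were read at their brightest probe set.

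Deviations of equal-numbered EBF1 and control arrays correlated at 0.35, 0.61 and 0.39, so these numbers were taken to pair arrays, in an alternative fit. For PAX5 arrays they correlated at 0.41, 0.19 and 0.33, but only 2 PAX5 samples are independent, and they were taken to share a number. Members, lists and the rule for names (all members, and each listed gene past the threshold) were chosen with earlier results of these data known. Figures were drawn in Python 3.11.15 with pandas 2.3.3 and matplotlib 3.10.9.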

Additional observations from a re-analysis of the deposited data

Results flagged for a closer look

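H2-DMa at probe set 1459872_x_at read above its controls on each PAX5 array and below its controls on each EBF1 array. PAX5 arrays 1, 2 and 3 read 85.0, 45.9 and 56.8, against 41.3, 28.8 and 20.1 in the controls of set 2. EBF1 arrays read 13.0, 14.3 and 11.9, against 35.6, 25.9 and 16.4 in the controls of set 1. The PAX5 change minus the EBF1 change was 1.37 in log2 (SE 0.23, limma adjusted p = 0.032, and 0.022 to 0.36 over the alternatives). It missed the threshold without control array 2 (0.0599), EBF1 array 1 (0.0975), EBF1 array 2 (0.0894) or PAX5 array 1 (0.361). The brighter H2-DMa probe set, where EBF1 and control arrays overlap, gave 1.86.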

How the results depend on the processing

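With PAX5, 17 of the 22 member probe sets passed, and 12 to 17 did over 17 alternatives. The EBF1 count of members was 0 under each of 17, and the count for the difference, 20, ran from 11 to 20 over 16. Over all probe sets the counts were 232 with PAX5, 44 with EBF1 and 473 for the difference. Counting all 12 arrays separately gave 638, 295 and 208, with 13 members in the difference. Only the groups of the comparison gave 122 with PAX5 and 18 with EBF1. A pseudocount of 1 gave 96 with PAX5 and 226 for the difference, with 11 members in it, and a pseudocount of 64 gave 14 with EBF1. The mean of each gene's probe sets gave 153 with PAX5 over fewer features. The replicate block gave 140 with PAX5 and 67 with EBF1, and under it 13 members passed with PAX5, without 1419744_at, 1449580_s_at, 1421211_a_at and 1447075_at. With PAX5 it also ended the calls of Spib (0.0684), Ccr2 (0.0983) and Ctsz (0.143). In the difference it ended those of 1421211_a_at (0.0557) and 1447075_at (0.0539) and gained 1419744_at (0.0246), as adjusted p. It changed no EBF1 member call. Without both PAX5 arrays 2 and 3, chosen after seeing the data, the counts were 149, 22 and 237.

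Leaving out 1 replicate at a time gave 50 (without PAX5 array 1) to 263 with PAX5, 18 (without control array 1) to 597 (without EBF1 array 3) with EBF1, and 78 (without PAX5 array 1) to 874 (without EBF1 array 3) for the difference. Members ranged from 12 to 17 with PAX5 and from 12 to 20 in the difference. Uncalled EBF1 changes turned sign with the mean of probe sets, at 0.055 for H2-Aa and 0.10 for H2-Ab1. Over left-out replicates they ran from -0.12 to 0.12 for H2-Ab1, -0.39 to 0.085 for H2-Oa, -0.52 to 0.024 for Cd74 and -0.12 to 0.36 for Ciita (1421211_a_at). Other causes of these differences were not tested. Probe sets near the floor of the arrays limit the change that can be measured, since background values are not in the files used here.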
